A study of Homo sapiens with 12 samples.

Results

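The genes described here are 9 members of the megakaryocyte lineage program, chosen by name from the 58735 genes of the count table as platelet receptors, granule proteins and megakaryocyte transcription factors. The receptors were ITGA2B, ITGB3, GP1BA and GP9, the granule proteins were PF4, PPBP and VWF, and the factors were FLI1 and MEIS1. They were measured by RNA-seq in K562, a human erythroleukemia line driven by the BCR-ABL1 kinase, which nilotinib inhibits. There were 4 conditions, each with 3 biological replicates (12 libraries). Mock DMSO had vehicle and no hemin, mock nilotinib had 0.1 μM nilotinib and no hemin, hemin DMSO had vehicle and 50 μM hemin for 24 h, and hemin nilotinib had both agents at these doses. Nilotinib or vehicle was given before hemin, for 24 h by the paper's methods, and mock libraries were taken at 0 h of hemin. A comparison of hemin with mock libraries therefore cannot be told apart from the time between their collections. The same holds for the interaction, since mock nilotinib and hemin nilotinib cells may differ in how long they had nilotinib. All 4 conditions shared the same leukemic line, which is a tumor line and not a normal bipotent progenitor.

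Megakaryocytes are the bone marrow cells that shed platelets, and they share a progenitor with red cells. ITGA2B and ITGB3 encode the alpha and beta chains of the platelet fibrinogen receptor, and GP1BA and GP9 encode chains of the GPIb-IX-V receptor, which binds von Willebrand factor. PF4 and PPBP are chemokines and VWF is an adhesive protein, all stored in platelet alpha granules. FLI1 is an ETS factor that drives many of these genes together with GATA1 and RUNX1, and MEIS1 is a homeodomain factor of progenitors and megakaryocytes. K562 cells are known to express some early genes of this lineage beside their erythroid program.

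Total counts per library ranged from 33457078 to 50506990. At this depth 3 counts, the limit that a count of 0 allows, are worth 0.0540 to 0.0957 CPM (counts scaled to 1e+06 per library after TMM), which covers counting error only. The lowest correlation between replicates of a condition was 0.969, in hemin nilotinib. Of the erythroid genes known from this line, the fetal globin HBG1 was at 195 ± 89.8 CPM in mock DMSO (SD, n = 3), and the summed levels of all marker lists are given further on. The stem cell antigen CD34 was at or near 0, at 0.0706 ± 0.0490 CPM (SD, n = 3) in hemin DMSO and lower elsewhere.

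Of the 9 members, 4 (ITGA2B, ITGB3, GP1BA and MEIS1) had enough counts for a test and 5 (GP9, PF4, PPBP, VWF and FLI1) were near 0. With nilotinib the 2 chains of the fibrinogen receptor moved in opposite directions, ITGA2B to a lower and ITGB3 to a higher level, both without and with hemin. GP1BA fell 9.49-fold with hemin in the absence of nilotinib, and MEIS1 was lower with nilotinib in cells without hemin. Under hemin the MEIS1 groups overlapped, and its fall with nilotinib was close to the threshold and was lost under several alternatives. Tests were made by edgeR's quasi-likelihood F-test, p was adjusted by Benjamini-Hochberg over the 20821 genes tested, and an adjusted p under 0.05 is called a change.

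**Figure D1:**
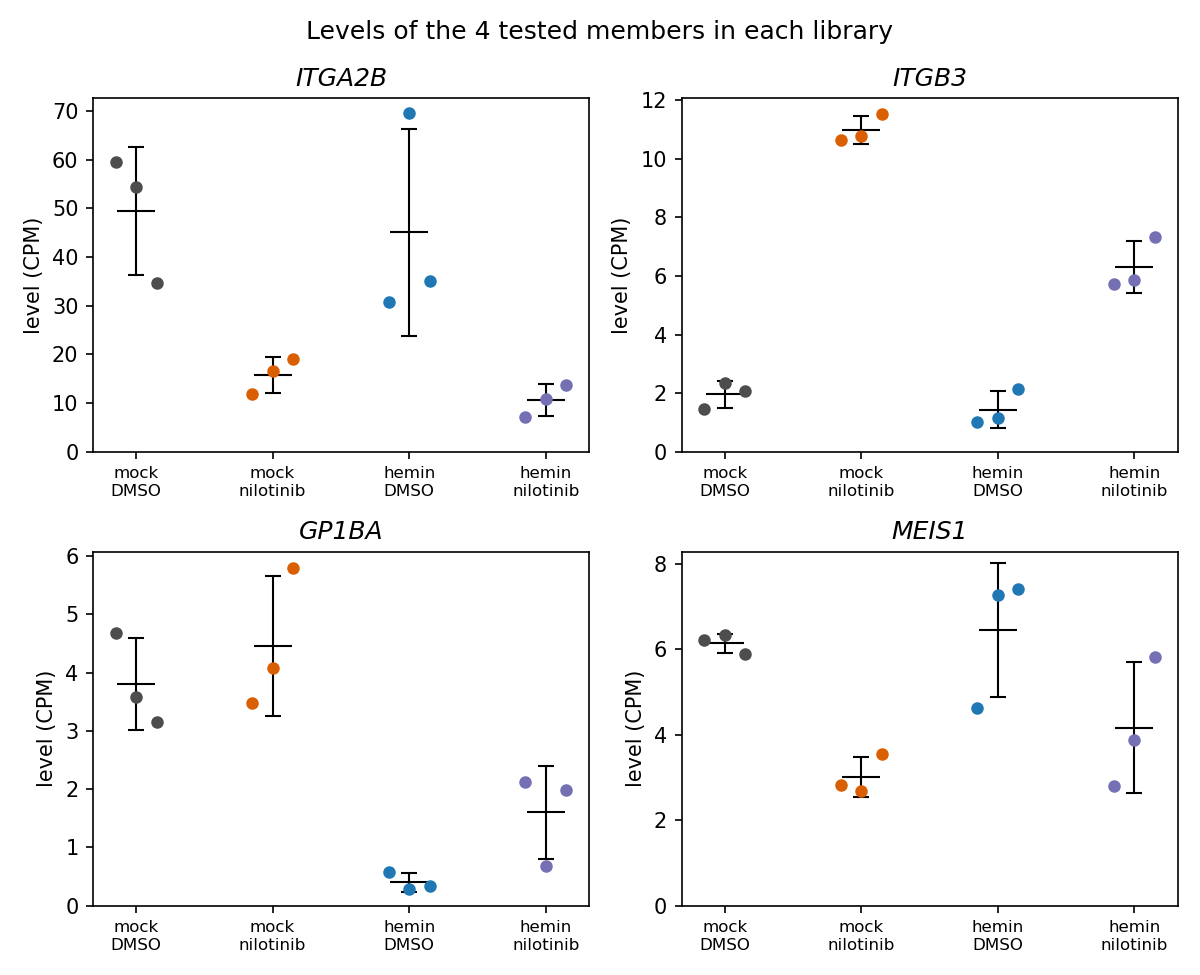
Level in CPM (linear axis from 0) of ITGA2B, ITGB3, GP1BA and MEIS1 in each library, by condition. Points are the 3 replicates, the horizontal mark is their mean and the bars are the SD. The 3 mock nilotinib libraries of ITGB3 sit between 10.7 and 11.5 CPM, above all other libraries, and the 3 hemin DMSO libraries of GP1BA sit between 0.287 and 0.582 CPM, below all other libraries.

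ITGA2B (ENSG00000005961; GRCh38, chromosome 17 from 44372180 to 44389505, minus strand), the alpha chain known as CD41 and an early mark of the lineage, was the highest member. Mock DMSO had 59.5, 54.3 and 34.7 CPM in replicates 1 to 3, and hemin DMSO had 30.8, 69.6 and 35.0 CPM. Mock nilotinib had 11.8, 16.5 and 19.1 CPM, and hemin nilotinib had 7.24, 10.8 and 13.7 CPM. All 6 libraries with nilotinib were below all 6 without it, whereas the mock and hemin libraries overlapped within each drug condition. The means fell from 49.5 ± 13.1 CPM in mock DMSO to 15.8 ± 3.71 in mock nilotinib, and from 45.1 ± 21.3 in hemin DMSO to 10.6 ± 3.24 in hemin nilotinib (SD, n = 3 each). Its log2 fold change was -1.65 (SE 0.30, adjusted p = 3.67e-04) without hemin and -2.09 (SE 0.31, adjusted p = 2.18e-05) with hemin. Between hemin and mock libraries it was -0.13 (SE 0.29, adjusted p = 0.722) in DMSO and -0.58 (SE 0.30, adjusted p = 0.289) in nilotinib, so neither difference passed the test. Hemin DMSO replicate 2 held the highest level of ITGA2B of all 12 libraries. Conditions that do not overlap were common over the 20821 genes tested. This held for 12692 genes with nilotinib without hemin and for 13224 with nilotinib under hemin. Between hemin and mock it held for 13056 genes in DMSO and 4851 in nilotinib.

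ITGB3 (ENSG00000259207; chromosome 17 from 47253846 to 47311816, plus strand), the beta chain, which also pairs with the ITGAV chain in the vitronectin receptor, was low in DMSO and higher in nilotinib. Mock DMSO had 1.46, 2.34 and 2.08 CPM, and hemin DMSO had 1.01, 1.15 and 2.16 CPM. Mock nilotinib had 10.7, 10.8 and 11.5 CPM, and hemin nilotinib had 5.72, 5.87 and 7.32 CPM. The 4 conditions therefore fell into an upper pair with nilotinib and a lower pair without it, with no overlap between the pairs. ITGB3 rose 5.62-fold with nilotinib without hemin (log2 fold change 2.49, SE 0.27, adjusted p = 1.98e-06) and 4.34-fold with hemin (2.12, SE 0.28, adjusted p = 6.29e-06). Within nilotinib, the 3 hemin libraries lay below the 3 mock libraries, at a log2 difference of -0.80 (SE 0.25, adjusted p = 0.0755). With replicate numbers as a block, a pairing that the labels do not give, this difference passed the test (-0.81, adjusted p = 0.0364). In DMSO the difference between hemin and mock was -0.42 (SE 0.28, adjusted p = 0.212), and it passed only without hemin DMSO replicate 3 (-0.88, adjusted p = 0.0139). Exons covering 51.6% of ITGB3 are shared on the same strand with AC068234.1, a gene listed at 0 counts in every library. Reads from the shared part may have been assigned to neither gene, and the level of ITGB3 may be understated. Whether such a loss was equal in all libraries was not tested.

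Levels of different genes can be set side by side only per length, for which the FPKM of the deposited table were used. In mock DMSO, ITGA2B was at 8.80 ± 2.31 FPKM and ITGB3 at 0.440 ± 0.105 FPKM, and in mock nilotinib they were at 2.82 ± 0.671 and 2.47 ± 0.113 FPKM (SD, n = 3 each). The ratio of ITGA2B to ITGB3 in a library ranged from 13.2 to 32.3 in mock DMSO and from 12.9 to 48.0 in hemin DMSO. It ranged from 0.878 to 1.31 in mock nilotinib and from 1.002 to 1.48 in hemin nilotinib. The 2 transcripts of the receptor were thus far apart in DMSO and at like levels in nilotinib, on the FPKM scale and within the limit on ITGB3 given above. ITGAV, the other alpha chain that pairs with ITGB3 and a gene named here after its values were seen, was at 7.77 ± 0.603 FPKM in mock DMSO and 9.43 ± 0.798 FPKM in mock nilotinib (SD, n = 3 each). Its log2 fold change with nilotinib was 0.28 (SE 0.13, adjusted p = 0.0915) without hemin and 0.30 (SE 0.13, adjusted p = 0.0525) with hemin.

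**Figure D2:**
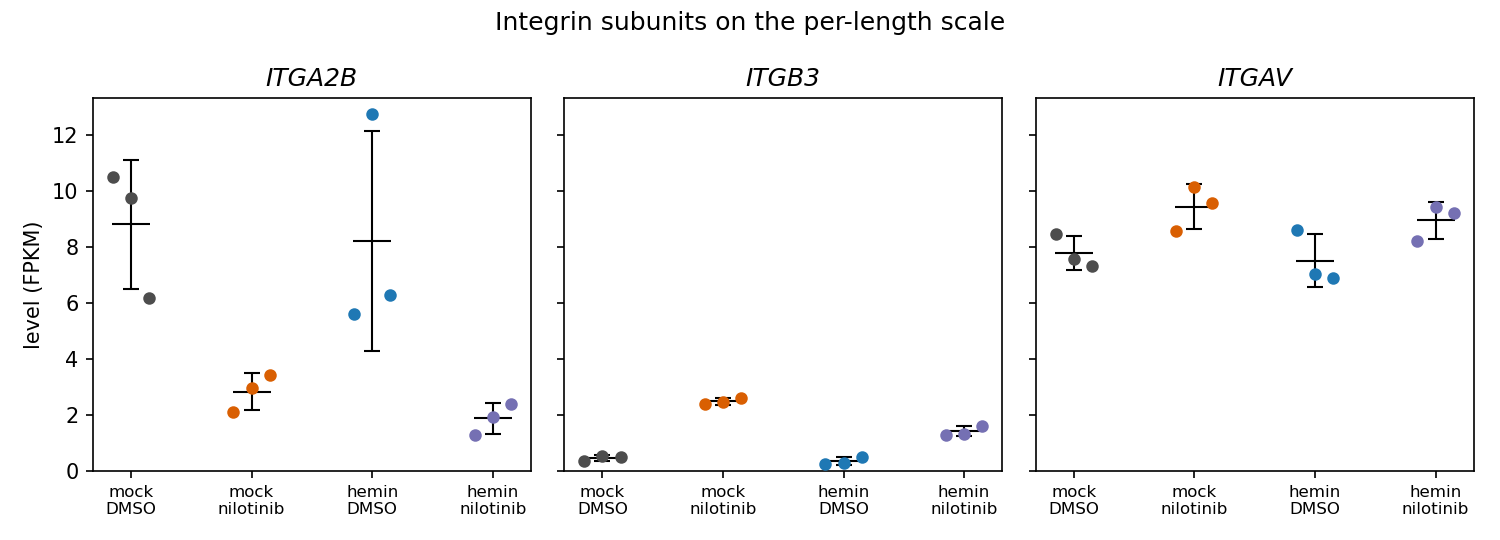
FPKM (per-length scale, linear axis from 0) of the integrin chains ITGA2B, ITGB3 and ITGAV in each library by condition, with points for replicates and the mean ± SD of 3. In both nilotinib conditions ITGA2B and ITGB3 lie within a few FPKM of each other, whereas in DMSO every ITGA2B library is above 5 FPKM and every ITGB3 library below 1 FPKM.

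GP1BA (ENSG00000185245; chromosome 17 from 4932297 to 4935030, plus strand), the chain of GPIb-IX-V that holds the binding site for von Willebrand factor, was lower with hemin both in DMSO and in nilotinib. Mock DMSO had 260, 150 and 164 counts (4.68, 3.58 and 3.15 CPM), and mock nilotinib had 137, 140 and 201 counts (3.47, 4.08 and 5.80 CPM). Hemin DMSO had only 19, 9 and 13 counts (0.582, 0.287 and 0.330 CPM), and hemin nilotinib had 74, 25 and 85 counts (2.13, 0.686 and 1.99 CPM). The hemin DMSO libraries were the lowest, the hemin nilotinib libraries came next, and both groups lay below all mock libraries, which overlapped each other. GP1BA fell 9.49-fold with hemin in DMSO (log2 fold change -3.25, SE 0.42, adjusted p = 9.98e-06) and 2.77-fold in nilotinib (-1.47, SE 0.37, adjusted p = 0.0287). With nilotinib it rose under hemin (log2 fold change 2.0002, SE 0.43, adjusted p = 6.73e-04), while without hemin the difference was 0.23 (SE 0.35, adjusted p = 0.632). The interaction, which tests whether the effect of nilotinib differed with hemin, was 1.78 (SE 0.55, adjusted p = 0.0234). The fall in nilotinib did not pass the test without mock nilotinib replicate 2 (-1.53, adjusted p = 0.0896), mock nilotinib replicate 3 (-1.24, adjusted p = 0.133) or hemin nilotinib replicate 2 (-1.11, adjusted p = 0.0998). The interaction did not pass without mock DMSO replicate 1 (1.62, adjusted p = 0.0568), hemin DMSO replicate 2 (1.62, adjusted p = 0.0580), hemin DMSO replicate 3 (1.65, adjusted p = 0.0588), mock nilotinib replicate 1 (1.62, adjusted p = 0.0514) or mock nilotinib replicate 2 (1.72, adjusted p = 0.0521).

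MEIS1 (ENSG00000143995; chromosome 2 from 66433452 to 66573869, plus strand), the homeodomain factor, was at 6.21, 6.32 and 5.88 CPM in mock DMSO and at 2.82, 2.68 and 3.55 CPM in mock nilotinib. It was at 4.63, 7.27 and 7.41 CPM in hemin DMSO and at 2.79, 3.87 and 5.82 CPM in hemin nilotinib. The mock groups did not overlap, whereas the highest hemin nilotinib library was above the lowest hemin DMSO library. MEIS1 fell 2.03-fold with nilotinib without hemin (log2 fold change -1.02, SE 0.27, adjusted p = 0.00530). Under hemin it was -0.63 (SE 0.26, adjusted p = 0.0470), close to the threshold, and it did not pass without hemin DMSO replicate 2 (-0.55, adjusted p = 0.115), hemin DMSO replicate 3 (-0.53, adjusted p = 0.126), hemin nilotinib replicate 1 (-0.41, adjusted p = 0.163) or hemin nilotinib replicate 2 (-0.58, adjusted p = 0.120). Between hemin and mock it was 0.07 (SE 0.26, adjusted p = 0.840) in DMSO and 0.47 (SE 0.27, adjusted p = 0.335) in nilotinib. Per length it was the lowest of the tested members in mock nilotinib, at 0.273 ± 0.0423 FPKM (SD, n = 3).

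**Figure D3:**
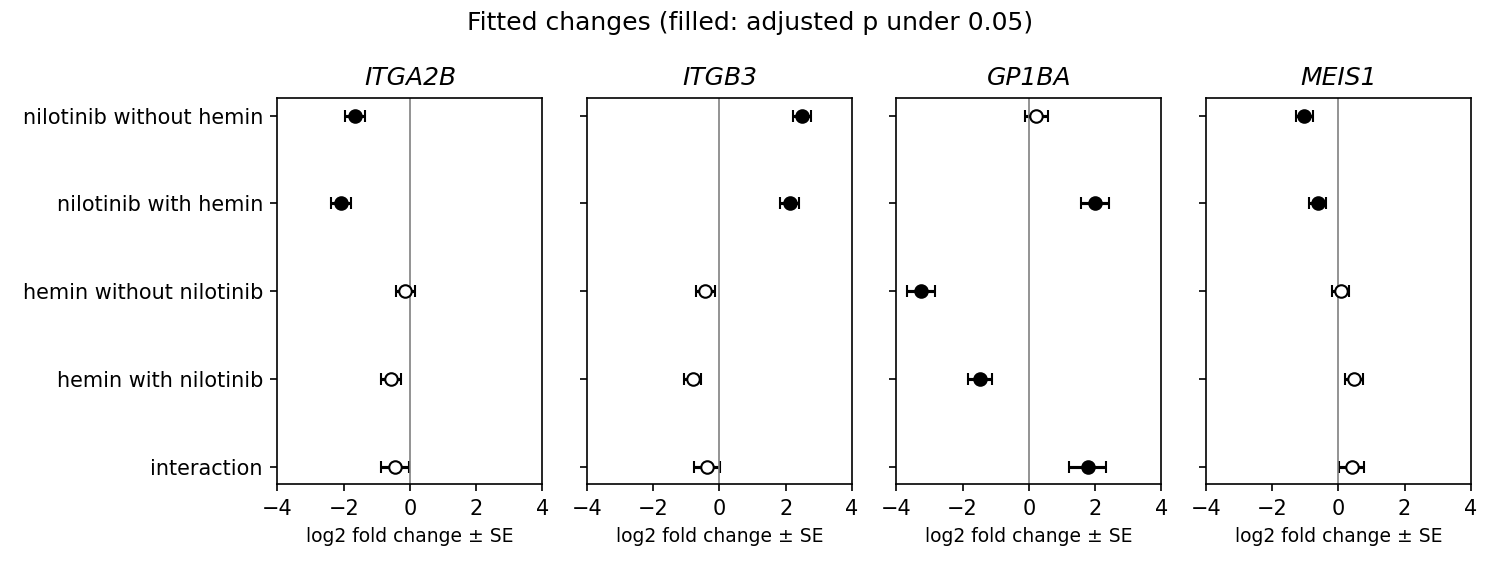
Fitted log2 fold change (horizontal axis, symmetric around 0) with its standard error for the 4 tested members in the 5 comparisons, filled where the adjusted p was under 0.05. ITGA2B and ITGB3 lie on opposite sides of 0 in both nilotinib comparisons, and GP1BA is the member with filled points in both hemin comparisons and in the interaction.

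Without hemin, nilotinib changed 3 of the 4 tested members, with ITGB3 higher and ITGA2B and MEIS1 lower, beside 42.5% of all genes tested. With hemin it changed all 4 tested members, 2 higher and 2 lower, beside 64.2% of all genes, and hemin alone changed 1 of 4, lower, beside 53.6%. Hemin in nilotinib changed 1 of 4, lower, beside 5.80% of all genes, and 2 of 4 with the replicate block, and the interaction was past the threshold for 1 of 4 beside 30.1%. With 4 genes tested, nothing particular to the members is read from these shares. The calls with hemin and in the interaction were those of GP1BA, joined by ITGB3 for hemin in nilotinib with the block. The median log2 fold change of the 4 was -0.40 with nilotinib without hemin and 0.69 with hemin, against 0.00 and 0.02 over all genes tested, and these medians average members that moved in opposite directions.

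The level of each member follows a different order of conditions. Conditions without overlap were common over all genes, as given for ITGA2B above, so separation is not particular to the members. For ITGA2B the order from high to low was mock DMSO, hemin DMSO, mock nilotinib and hemin nilotinib, with overlap within the first and within the last pair. For ITGB3 it was mock nilotinib, hemin nilotinib, mock DMSO and hemin DMSO, with overlap only in the last pair. For GP1BA it was mock nilotinib, mock DMSO, hemin nilotinib and hemin DMSO, with overlap only in the first pair. For MEIS1 it was hemin DMSO, mock DMSO, hemin nilotinib and mock nilotinib, with overlap between all neighbours except mock DMSO and hemin nilotinib.

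The other 5 members had too few counts for a test, and their counts are given in full. GP9 (ENSG00000169704; chromosome 3 from 129060767 to 129062406), the small chain of GPIb-IX-V, had 1, 1 and 0 counts in mock DMSO, 5, 3 and 1 in mock nilotinib, 1, 1 and 3 in hemin DMSO, and 0, 0 and 1 in hemin nilotinib. PPBP (ENSG00000163736; chromosome 4 from 73987038 to 73988197), the precursor of platelet basic protein, had 6, 3 and 0 counts in mock DMSO and 1, 3 and 0 in hemin DMSO, and 0 in all 6 libraries with nilotinib. PF4 (ENSG00000163737; chromosome 4 from 73981077 to 73982124), platelet factor 4, had 2, 1 and 0 counts in hemin DMSO and 1 count in hemin nilotinib replicate 3, with 0 in the 6 mock libraries. Most of these values are at or below the 3 counts that a count of 0 allows, so no fold change is given.

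VWF (ENSG00000110799; chromosome 12 from 5948874 to 6124770), the large adhesive protein that GP1BA binds, had counts in all 12 libraries but never more than 8. Its counts were 2, 5 and 1 in mock DMSO, 2, 4 and 1 in mock nilotinib, 1, 8 and 2 in hemin DMSO, and 2, 4 and 4 in hemin nilotinib. Divided by its long transcript this was 0.00554 to 0.0109 FPKM over the 4 group means. FLI1 (ENSG00000151702; chromosome 11 from 128686535 to 128813267), the ETS factor of the lineage, had 0 counts in all 12 libraries, which allows up to 0.0540 to 0.0957 CPM in a library. Opposite-strand genes overlap 4.03% of its exon length, so the 0 covers nearly all of the transcript. In a fit of every gene that had a count, 4 of these 5 entered (FLI1 did not) and none had an adjusted p under 0.05 in any comparison. Before adjustment, PPBP with nilotinib without hemin and GP9 in the interaction were under 0.05 in edgeR, and their adjusted p were 0.108 and 0.177.

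**Figure D4:**
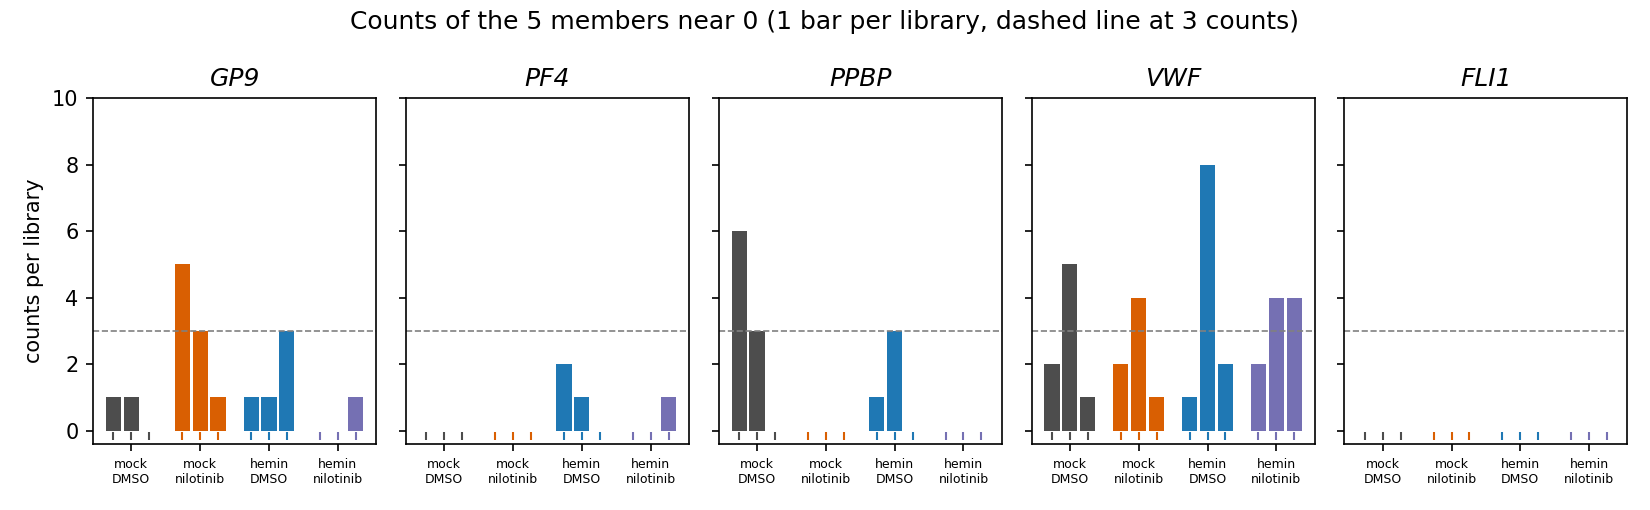
Counts per library (linear axis from 0) of GP9, PF4, PPBP, VWF and FLI1, 1 bar per library in the order of the replicates within each condition, with a dashed line at 3 counts. No bar exceeds 8 counts, PPBP has no bar in nilotinib and FLI1 has no bar at all.

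The upstream sequence of 2 tested members that passed the test with nilotinib is shown because FLI1, GATA and MEIS factors are known to act at promoters of this lineage. The letters are the 250 bases before the start of each gene in RefSeq (GRCh38.p14), read 5′ to 3′ on the gene's strand, at chr17:44389650-44389899 (minus strand) for ITGA2B and chr2:66434875-66435124 (plus strand) for MEIS1. These starts are not those of GENCODE 29, in whose gene models the MEIS1 window lies inside the gene but outside its exons and the ITGA2B window lies further upstream, not next to the start of the gene. Capitals mark a match, on either strand, to any of the words searched. For GATA factors these were AGATAA and a second word, TGATAA. For ETS factors the first word was CGGAAG and the second word was AGGAAG. For MEIS factors the word was TGACAG.
ITGA2B: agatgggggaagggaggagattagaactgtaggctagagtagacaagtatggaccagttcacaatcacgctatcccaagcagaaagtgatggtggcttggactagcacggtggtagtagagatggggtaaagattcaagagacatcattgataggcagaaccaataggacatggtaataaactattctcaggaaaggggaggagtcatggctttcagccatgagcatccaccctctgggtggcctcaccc
MEIS1: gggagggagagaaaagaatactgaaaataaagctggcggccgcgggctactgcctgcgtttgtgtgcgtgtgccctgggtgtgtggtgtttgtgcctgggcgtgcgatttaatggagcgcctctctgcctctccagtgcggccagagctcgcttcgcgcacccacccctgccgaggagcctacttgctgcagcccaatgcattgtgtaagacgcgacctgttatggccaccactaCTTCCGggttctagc

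The MEIS1 window held 1 match, to the ETS word CGGAAG on the minus strand, with its first base at position -15 from the start. The ITGA2B window held no match before the start, and AGGAAG on the minus strand began at position 2 after it. Of the near-silent members, PPBP held the GATA word AGATAA at position -217 before the start and, on the minus strand, at position 3 after it, and the second ETS word at -221, -79 and -61. GP9 held the first ETS word at -40 and the second at -44, and in both genes neighbouring words share letters. In the 35116 promoter windows of 300 bases in the table, AGATAA was found in 10.3%, TGATAA in 7.53%, CGGAAG in 19.5%, AGGAAG in 33.6% and TGACAG in 15.8%, so single matches to these short words are common. The matches are a description of letters, and neither the presence nor the absence of a word bears on whether a factor was bound.

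Among 54 other genes of megakaryocytes and platelets, 44 had enough counts for a test. Nilotinib without hemin raised 15 and lowered 13 of the 44, beside 42.5% of all genes tested that were called in either direction. With hemin it raised 21 and lowered 14, beside 64.2% of all genes. Hemin without nilotinib raised 9 and lowered 23 of the 44, beside 53.6%, and hemin with nilotinib raised 4 and lowered 3, beside 5.80%. Their median log2 fold changes were 0.05, 0.27, -0.49 and 0.12 in these comparisons, against 0.00, 0.02, -0.05 and 0.03 over all genes. This longer list had calls in both directions in each of these 4 comparisons. The 4 tested members had calls in both directions in the nilotinib comparisons. In each hemin comparison only 1 member was called, so calls in both directions could not occur and no contrast with the longer list is drawn. By direction, over all 20821 genes tested, nilotinib raised 4304 and lowered 4547 without hemin, and raised 6748 and lowered 6611 with hemin. Hemin raised 5360 and lowered 5796 without nilotinib, and raised 733 and lowered 475 with nilotinib. The counts by role and of markers further on stand beside these same shares and counts of all genes.

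Of 16 other receptors, 10 were tested, and 2 rose and 2 fell with nilotinib without hemin. GP6, the platelet collagen receptor, rose from 5.65 ± 1.31 to 19.6 ± 2.32 CPM (log2 fold change 1.80, adjusted p = 8.80e-07), and from 3.72 ± 0.0981 to 25.0 ± 2.37 CPM under hemin (2.75, adjusted p = 6.13e-09; SD, n = 3 each). F2RL3, the thrombin receptor PAR4, fell from 19.2 ± 2.04 to 3.02 ± 0.342 CPM (-2.66, adjusted p = 9.38e-08), and TBXA2R, the thromboxane receptor, fell from 18.03 ± 2.54 to 4.98 ± 0.466 CPM (-1.85, adjusted p = 6.33e-07). Under hemin, F2RL3 rose with nilotinib from 2.08 ± 0.538 to 3.48 ± 0.520 CPM (0.73, adjusted p = 0.00840), and for TBXA2R the log2 difference was 0.02 (SE 0.18, adjusted p = 0.939). Under hemin 6 receptors rose and 3 fell with nilotinib, and with hemin alone 2 rose and 6 fell. Receptors for which no test was made included the partners of GP1BA and GP9: GP5 had at most 7 counts in a library, and GP1BB is listed at 0 but lies on the same strand inside SEPT5-GP1BB, a gene that did have counts, so its 0 is not read as a level. SELP, CLEC1B and TREML1 had at most 3 counts in a library and P2RY12 had 0.

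Of 11 other granule and secreted genes 8 were tested. With hemin in DMSO 5 rose and 1 fell, with nilotinib under hemin 2 rose and 5 fell, and with nilotinib without hemin 2 rose and 3 fell. CLU, the chaperone clusterin, was at 1.40 ± 0.521 CPM in mock DMSO, 159 ± 36.7 in hemin DMSO and 6.37 ± 2.98 in hemin nilotinib (SD, n = 3 each), which is 6.84 on the log2 scale with hemin (adjusted p = 2.96e-09) and -4.64 with nilotinib under hemin (adjusted p = 7.18e-09). Without hemin CLU rose with nilotinib, to 3.63 ± 0.469 CPM (1.39, adjusted p = 0.00326). THBS1, thrombospondin, changed on the log2 scale by 3.05 (adjusted p = 1.03e-05) with hemin and by -4.60 (adjusted p = 2.65e-07) with nilotinib under hemin, and for nilotinib without hemin the value was -0.32 (adjusted p = 0.569). PF4V1 was at 0 in every library, and MMRN1, multimerin, had at most 7 counts. SRGN, the proteoglycan that holds granule cargo, fell with nilotinib without hemin (-1.13, adjusted p = 1.50e-05) and rose with hemin in nilotinib (1.64, adjusted p = 2.97e-05).

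All 13 genes of platelet cytoskeleton and signalling were tested, and 5 rose and 4 fell with nilotinib without hemin, as did 6 and 4 with hemin. TUBB1, the tubulin of the platelet marginal band, rose from 16.8 ± 9.15 CPM in mock DMSO to 201 ± 8.71 CPM in mock nilotinib (log2 fold change 3.58, adjusted p = 1.94e-07) and from 4.50 ± 0.782 CPM in hemin DMSO to 236 ± 39.3 CPM in hemin nilotinib (5.70, adjusted p = 1.87e-09; SD, n = 3 each). PTGS1, the cyclooxygenase of platelets, rose by 1.36 (adjusted p = 1.05e-06) and 2.12 (adjusted p = 4.91e-09). ARHGDIB, a signalling protein of blood cells, had log2 fold changes of -3.31 (adjusted p = 3.14e-07) and -3.09 (adjusted p = 2.41e-07), a fall in both. Hemin in DMSO lowered 6 of the 13, among them TUBB1 (-1.90, adjusted p = 9.49e-05) and PTGS1 (-1.27, adjusted p = 2.19e-06), and raised TBXAS1 (0.71, adjusted p = 0.0239).

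Of 14 other factors 13 were tested, and ERG, an ETS factor related to FLI1, had at most 3 counts in a library. With nilotinib without hemin 6 rose and 4 fell. HHEX, a homeodomain factor of progenitors, fell from 110 ± 9.79 to 9.04 ± 0.561 CPM (log2 fold change -3.61, adjusted p = 2.26e-10). LMO2 (1.81, adjusted p = 6.75e-07) and TAL1 (1.79, adjusted p = 3.97e-07), which work with GATA1 in erythroid and megakaryocyte cells alike, rose. GATA1, GATA2 and RUNX1, which are known to act with FLI1, are given here as a set named after the values were seen, and they did not move together. GATA1 was at 296 ± 28.3 CPM in mock DMSO and 376 ± 22.3 CPM in mock nilotinib (0.34, adjusted p = 0.0572), and under hemin it rose with nilotinib (1.005, adjusted p = 1.23e-05). GATA2 fell from 210 ± 2.79 to 62.2 ± 8.32 CPM without hemin (-1.76, adjusted p = 8.02e-07; SD, n = 3 each) and also fell under hemin (-1.04, adjusted p = 6.94e-05). RUNX1 fell from 122 ± 17.9 to 44.6 ± 15.3 CPM without hemin (-1.45, adjusted p = 2.79e-05), and under hemin its value was 0.19 (SE 0.20, adjusted p = 0.406). With nilotinib under hemin 7 rose and 2 fell, led by GFI1B (4.81, adjusted p = 1.21e-10), NFE2 (3.48, adjusted p = 3.47e-10) and LMO2 (3.41, adjusted p = 6.33e-10). Hemin in DMSO lowered 10 of the 13, among them GFI1B (-3.46, adjusted p = 8.40e-09) and NFE2 (-2.84, adjusted p = 1.0004e-08). Several of these factors are shared with the erythroid lineage.

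**Figure D5:**
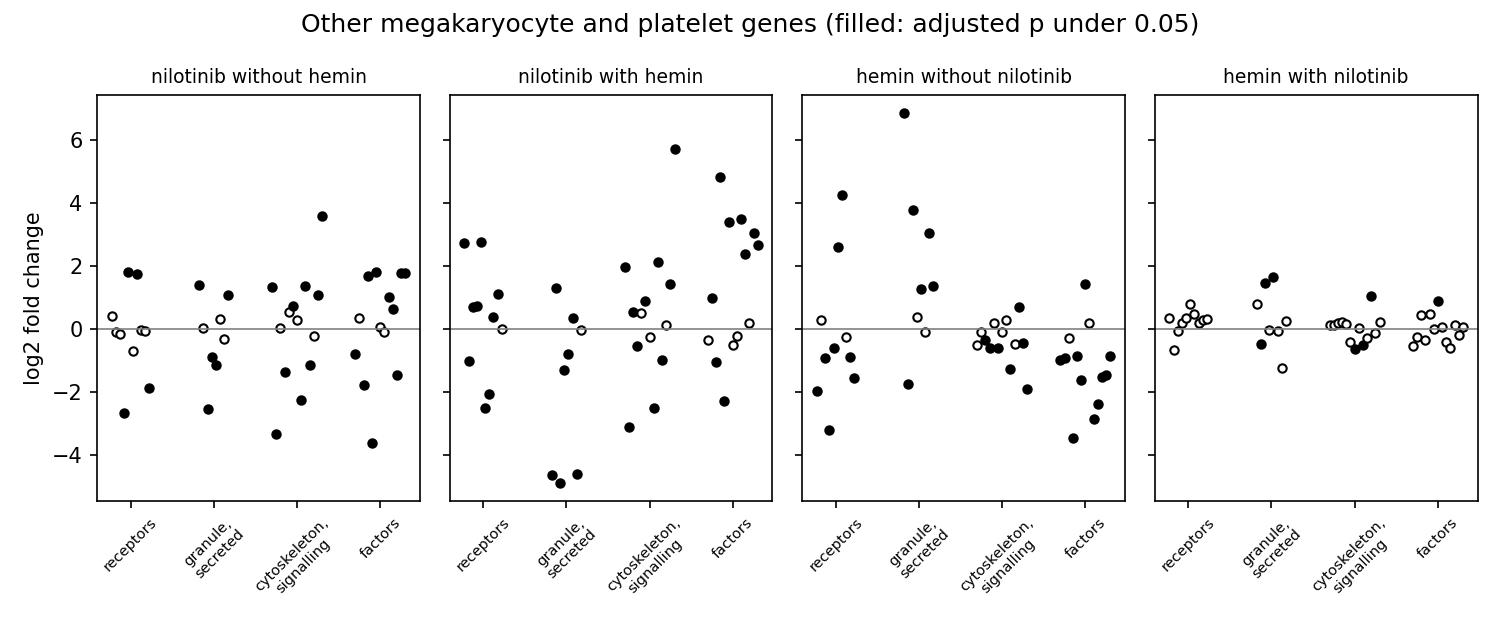
Fitted log2 fold change (vertical axis) of the 44 tested genes among 54 other megakaryocyte and platelet genes, by role, in the 4 comparisons, filled where the adjusted p was under 0.05. Filled points lie on both sides of 0 in each panel, and the panel of hemin with nilotinib holds 7 filled points of 44.

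Markers of other lineages moved in the same comparisons, and their part in the members' values was not tested. Over all genes tested, nilotinib changed 42.5% without hemin and 64.2% with hemin. All 12 erythroid genes rose with nilotinib both without and with hemin, with median log2 fold changes of 4.83 and 4.65. Their summed level was 620 to 1207 CPM in mock DMSO and 996 to 1185 CPM in hemin DMSO, against 15135 to 20700 CPM in mock nilotinib and 19277 to 28065 CPM in hemin nilotinib. Of 12 myeloid genes 10 were tested, and 6 fell without hemin and 7 with hemin, with summed levels of 164 to 185 CPM in mock DMSO, 37.8 to 44.6 in mock nilotinib, 110 to 138 in hemin DMSO and 15.9 to 34.2 in hemin nilotinib. Of 5 stem and progenitor genes 3 were tested, and 2 fell without and 3 with hemin, with a summed level of 44.6 to 53.1 CPM in mock DMSO and 6.67 to 10.4 CPM in mock nilotinib. Of 6 lymphoid genes 4 were tested, and their summed level was at most 26.04 CPM, in hemin DMSO. Endothelial cells also use VWF and FLI1, and of 5 endothelial genes CDH5 was at 0 in all 12 libraries, KDR and TEK were near 0, and PECAM1 and CLDN5, which K562 cells had, were tested. In bulk RNA, fewer cells of a type and less RNA per cell cannot be told apart. Of the 5 reference genes, 1 fell with nilotinib without hemin and 4 fell with hemin, with median log2 fold changes of -0.18 and -0.65.

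The genes whose log2 CPM followed a tested member most closely over the 12 libraries, among 12495 genes with a mean of at least 100 counts, were PDIA5 (Pearson's r = 0.987) and PRSS2 (0.981) for ITGA2B, TMEM191C (0.984) and UBA7 (0.983) for ITGB3, DGKQ (0.988) and PAQR7 (0.976) for GP1BA, and TMCC2 (0.938) and IER2 (0.935) for MEIS1. None of these 8 is a member or a gene of the other megakaryocyte list. Those lists hold few of the 12495 candidates, so nothing is read from this. Between members, r over the 12 libraries was -0.79 for ITGA2B with ITGB3, 0.80 for ITGA2B with MEIS1, -0.75 for ITGB3 with MEIS1 and 0.52 for ITGB3 with GP1BA. These correlations describe libraries that fall into 4 conditions and share their scaling.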

How the data were processed

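RNA-seq of K562 cells was read in 12 libraries of 4 conditions, 3 biological replicates each, grouped by the sample titles. The authors deposited raw counts per gene, without normalization, and FPKM, which are counts per length divided by 1 factor per library. The submitters' processing notes name GRCh38.p12, DESeq and DESeq2. The aligner, the counting program and its strand setting are not given in the sources used here. The deposited means per condition were left aside. No column was left without a sample.

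The 9 members and all gene lists were chosen with earlier results of these data known. The fit used edgeR 4.0.16 (R 4.3.3) with filterByExpr (minimum count 10, minimum total count 15), TMM, and quasi-likelihood with a mean for each condition of the 12 libraries. Tests were two-sided, with Benjamini-Hochberg adjustment over 20821 genes and a threshold of 0.05. Comparisons were nilotinib without and with hemin, hemin without and with nilotinib, and their interaction. CPM are counts scaled to 1e+06 per library after TMM. Total counts of 33457078 to 50506990 set the counting precision. Other genes were named by role, up to 3 per comparison with the largest change past the threshold and a mean of at least 100 counts in 1 condition. A few listed genes are left unnamed here but enter the counts and medians of their lists.

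Alternatives were DESeq2 1.42.0, RLE or no composition factors, 2 other filters, limma-trend (limma 3.58.1) on log2(FPKM + 1) and log2(FPKM + 0.1), a 2-fold minimum, a comparison's own 6 libraries, a replicate block, and leaving out each library. Deviations of same-numbered libraries had r of 0.199 to 0.263 for mock nilotinib with hemin nilotinib, above a chosen limit of 0.1 in all 3 pairs. Other groups did not pass this limit in all 3 pairs, but some came close to it. For mock DMSO, r was 0.087 to 0.099 with mock nilotinib, 0.085 to 0.104 with hemin DMSO and -0.080 to 0.092 with hemin nilotinib. The labels give no pairing, and whether replicate numbers pair any of the groups was not tested. On simulated counts of 20821 genes for nilotinib without hemin, edgeR called 99 of 100 genes changed 4-fold and 55 of 100 changed 2-fold, with 8 false calls. Only these genes were changed, as many up as down, and they were chosen above a minimum mean count. The simulation therefore does not cover changes in a large share of genes or genes with few counts. Positions and overlaps came from GENCODE 29, in which 58724 of the genes have the same start and end, and promoters from RefSeq (GRCh38.p14), which matched 4 members (MEIS1, GP9, PPBP and ITGA2B). Figures were made in Python 3.11.15 with matplotlib 3.10.9.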

Additional observations from a re-analysis of the deposited data

Results flagged for a closer look

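The fitted effect of nilotinib on GP1BA differed between cells without and with hemin, which cannot be told apart from the time between their collections. The log2 fold change with nilotinib was 0.23 without hemin and 2.0002 with hemin, and the difference was 1.78 (SE 0.55, adjusted p = 0.0234 by Benjamini-Hochberg in edgeR). It was singled out because the interaction itself passed the test, beside 30.1% of all genes tested. Hemin DMSO held 19, 9 and 13 counts of GP1BA. Its adjusted p ranged from 0.00118 to 0.289 over the alternatives. It did not pass without mock DMSO replicate 1 (1.62, adjusted p = 0.0568), hemin DMSO replicate 2 (1.62, adjusted p = 0.0580) or 3 (1.65, adjusted p = 0.0588), or mock nilotinib replicate 1 (1.62, adjusted p = 0.0514) or 2 (1.72, adjusted p = 0.0521). Dixon's outlier criterion was not applied, since each condition has 3 libraries.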

How the results depend on the processing

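No member's call past the threshold changed sign under any alternative or left-out library. Among differences not past it, signs changed for hemin in DMSO in ITGA2B (-0.13 to 0.04 without hemin DMSO replicate 1) and MEIS1 (0.07 to as low as -0.17, without composition factors), and for the interaction in ITGA2B (-0.44 to 0.03 without hemin DMSO replicate 2) and ITGB3 (-0.37 to 0.06 without hemin DMSO replicate 3). The directions and calls of ITGA2B and ITGB3 with nilotinib, of MEIS1 with nilotinib without hemin and of GP1BA with hemin in DMSO held wherever they were tested. With at least 10 counts in every library GP1BA was not tested and MEIS1 missed the threshold with nilotinib under hemin (-0.63, adjusted p = 0.0526), which left 2 members past it there and 0 in both hemin comparisons and in the interaction.

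For hemin in nilotinib, members past the threshold were 2 with DESeq2, 3 with all genes of at least 1 count, 2 with log2(FPKM + 1), 0 with the 6 libraries alone, 2 with the replicate block, and 0 to 1 with a library left out. All genes past it were 1208, against 1974 with DESeq2, 1987 with all genes of at least 1 count, 741 with log2(FPKM + 1), 694 with log2(FPKM + 0.1), 183 with the 6 libraries alone, 565 with a 2-fold minimum, and 198 to 2774 with a library left out (198 and 237 without mock nilotinib replicates 2 and 3, 2774 and 260 without hemin nilotinib replicates 1 and 2). The block changed no other call of a member.

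Leaving out a library gave 1 to 2 members for hemin in DMSO (2 without hemin DMSO replicate 3) and 0 to 1 for the interaction, which was 0 with log2(FPKM + 0.1). GP1BA lost the interaction with log2(FPKM + 0.1) (1.18, adjusted p = 0.0881) and with log2(FPKM + 1) (0.33, adjusted p = 0.289), where ITGB3 passed instead (-0.41). A 2-fold minimum gave 6474 genes for hemin in DMSO, 4073 for the interaction and 4872 for nilotinib without hemin. MEIS1 with nilotinib under hemin also missed the threshold without composition factors (-0.44), with all genes of at least 1 count (-0.59), with log2(FPKM + 0.1) (-0.57) and with the 6 libraries alone (-0.60). ITGA2B passed it for hemin in nilotinib with all genes of at least 1 count (-0.58). The cause of these shifts was not tested. Members near 0 are limited by depth.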
